A study of Nannochloropsis oceanica with 15 samples.

Results

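Genes whose transcript level stayed nearly level after a change from white light to red or blue light were followed in Nannochloropsis oceanica, a single-celled marine alga of the eustigmatophytes. A gene counted as stable under a rule on the median of log2(FPKM + 1) over the 3 libraries of a group. Its highest and lowest medians among the 5 groups had to lie at most 0.25 apart on the log2 scale, a ratio of 1.19, and all 5 medians had to reach log2(31), which is 30 FPKM. FPKM is the number of sequenced fragments per kilobase of gene model, divided by a total for the library. The genes were thus chosen by their measured group medians. The rule was met by 142 of 9756 gene models (1.46%), which are 4.76% of the 2982 models whose 5 medians all reached 30 FPKM. The other 2840 genes over that floor served as the comparison.

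Every cell makes some transcripts at a steady rate because their products, such as parts of the translation machinery and the cytoskeleton, are needed in any condition. Such genes are often called housekeeping genes, and a few of them serve as references when the transcripts of other genes are quantified by PCR. Whether a gene is steady depends on the condition, and light is a broad signal for an alga: it drives photosynthesis, and stramenopile algae also sense blue light through photoreceptors such as aureochromes and cryptochromes. Apart from DGAT1A, which is not among the stable genes, the deposited models carry numbered IDs without names or functions, so it is not known here which of the stable genes belong to these classes. The stable genes are described by ID, level, position and gene structure.

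All cells were wild-type strain IMET1, grown in bubbled column bioreactors at 25 °C with air of 0.04% CO2 under continuous light of about 80 µmol photons per square metre and second. The groups were blue 12 h and blue 24 h (12 h or 24 h after the change to blue light), red 12 h and red 24 h (the same times after the change to red light), and white 0 h, sampled at the switch, with 3 libraries each. White light was sampled only at 0 h, so in a difference from white 0 h the light colour and the elapsed time cannot be told apart. Separate cultures are not stated for the 3 libraries of a group, and a p-value here reflects only how far these libraries differ, a spread that may be technical.

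The libraries held 3130000 to 6440000 fragments in genes, as recovered from the steps of the low FPKM values, and their median FPKM ran from 17.8 to 25.0. Red 24 h library 1 had the lowest median and the highest sum of FPKM, 815138, against 430453 to 644393 in the other libraries. The 3 white 0 h libraries had the lowest sums, 430453 in library 1, 523387 in library 2 and 528814 in library 3. Every coloured-light library had 571247 or more, so this difference in sums runs along each comparison with white 0 h. The medians were ordered otherwise. White 0 h libraries 2 and 3 had the highest, 24.7 and 25.0 FPKM, and the highest in coloured light was 23.5 FPKM, in red 12 h library 1. White 0 h library 1 had 20.3 FPKM, below every coloured-light library except red 24 h library 1. In white 0 h libraries 2 and 3 the sum was thus lower and the median higher than in every coloured-light library. FPKM is relative to a total for the library that is not given, and its sum over the gene models differed between libraries. A stable FPKM is thus stable on the deposited scale and need not be a stable share of the measured RNA. Fewer cells and less RNA per cell cannot be told apart.

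Most of the stable genes were moderately expressed. Their mean over the 15 libraries ran from 31.5 to 568 FPKM, with a median of 54.0 FPKM and quartiles of 41.0 and 78.9 FPKM. The other genes over the floor had a median of 77.0 FPKM. A mean of at least 100 FPKM was found in 26 stable genes (18.3%) and in 1054 of the other genes (37.1%). By mean level, the rule took 60 of 598 genes under 50 FPKM (10.0%), 56 of 1304 between 50 and 100 FPKM (4.29%), 15 of 610 between 100 and 200 FPKM (2.46%) and 11 of 470 from 200 FPKM upwards (2.34%). The share of stable genes was thus smaller at higher levels, although the floor itself limits how far a gene near it can vary and still be counted.

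The range of the 5 medians is the quantity that chose the genes, and it is given as a description. In the stable genes it ran from 0.04 to 0.25 with a median of 0.20, a ratio of 1.15 between the highest and the lowest group. In the other genes over the floor it ran up to 5.41 with a median of 0.72, a ratio of 1.65. A range of at most 0.05 was reached by 2 genes, and one of 0.05 to 0.10 by 10 genes. Each further step held more: 16 genes at 0.10 to 0.15, 42 at 0.15 to 0.20, 72 at 0.20 to 0.25 and, beyond the limit, 116 at 0.25 to 0.30. The stable genes are therefore the lower tail of a continuous distribution, with no gap at the limit.

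**Figure D1:**
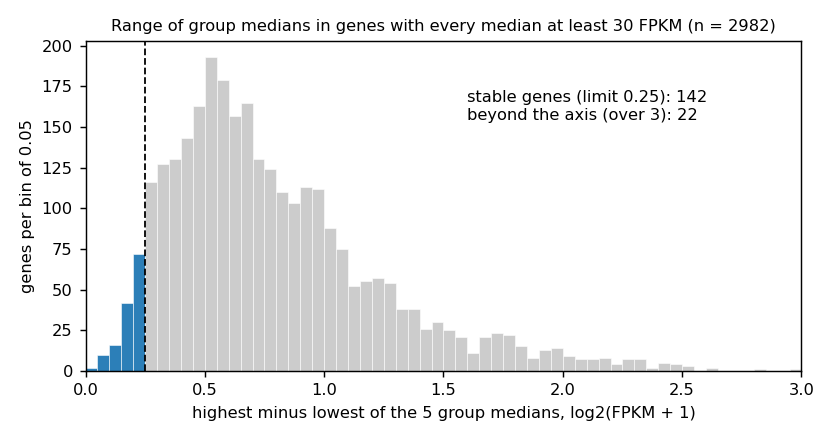
Number of genes (vertical axis) by the range of their 5 group medians of log2(FPKM + 1) (horizontal axis), for the 2982 genes whose medians all reached 30 FPKM. The stable genes fill the bins up to the limit of 0.25 and the counts go on rising past it.

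The limit separated genes that hardly differed. Just inside were scaffold00050.g2136, scaffold00082.g2983 and scaffold00007.g18, each with a range of 0.25 (0.2499, 0.2491 and 0.2483 to 4 decimals). Just outside were scaffold00127.g4419, scaffold00095.g3364 and scaffold00182.g5594 (0.2513, 0.2515 and 0.2515). At the floor, scaffold00295.g8627 was counted with a lowest median of 30.3 FPKM, in white 0 h, and scaffold00354.g10189 with 30.5 FPKM, in blue 12 h. The genes scaffold00247.g6686 and scaffold00009.g595 had ranges of 0.22 and 0.24 and missed the floor, with lowest medians of 30.0 and 29.9 FPKM once rounded, both in blue 12 h.

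Each of the 5 groups held the highest median of some stable genes and the lowest of others. Their median level, taken over the 142 group medians, was 55.7 FPKM in blue 12 h, 55.4 in blue 24 h, 54.8 in red 12 h, 55.0 in red 24 h and 53.9 in white 0 h. The highest median was that of blue 12 h for 19 genes, of blue 24 h for 31, of red 12 h for 33, of red 24 h for 40 and of white 0 h for 19. The lowest was that of blue 12 h for 31 genes, of blue 24 h for 16, of red 12 h for 25, of red 24 h for 29 and of white 0 h for 41 (28.9%). White 0 h held the lowest median of 1755 of the other genes over the floor (61.8%), and the rule selected the stable genes for the absence of such differences.

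The choice of scale, of median and of libraries each changed which genes met the rule, and 3 genes met it throughout. The settings numbered 21: 4 other scalings of the libraries, a pseudocount of 0.1, group means in place of medians, and the omission of each of the 15 libraries in turn. All 4 scalings kept 20 of the 142 genes, all 15 omissions kept 12, and all 21 settings together kept scaffold00354.g10209, scaffold00069.g2268 and scaffold00267.g7536. At least 15 of the settings kept 91 genes.

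The gene scaffold00354.g10209 (scaffold00354, 640425 to 642229, minus strand, 2 exons) had the smallest range of the 3, 0.08. Its FPKM was 40.4, 44.6 and 42.2 in blue 12 h, 40.8, 42.5 and 42.3 in blue 24 h, 42.9, 42.3 and 40.6 in red 12 h, 40.1, 42.6 and 44.3 in red 24 h, and 35.9, 47.6 and 44.6 in white 0 h. The 5 groups overlapped, and both the lowest and the highest value of the 15 were in white light. Over the 15 libraries it averaged 42.3 ± 2.64 FPKM (SD, n = 15), a coefficient of variation of 6.24%. Its differences in the 8 comparisons lay between -0.02 and 0.01 on the log2 scale with a standard error of 0.11.

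The gene scaffold00069.g2268 (scaffold00069, 57036 to 59113, plus strand, 4 exons) had a range of 0.11. It gave 50.3, 50.9 and 50.1 FPKM in blue 12 h, 50.7, 51.7 and 52.2 in blue 24 h, 54.6, 51.4 and 49.7 in red 12 h, 51.8, 52.0 and 49.6 in red 24 h, and 44.6, 48.0 and 56.5 in white 0 h. The 3 white libraries spanned the values of all other groups, and the groups overlapped with each other as well. Its coefficient of variation was 5.29% around a mean of 50.9 FPKM, and its highest minus lowest value over 15 libraries was 0.33 on the log2 scale.

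The gene scaffold00267.g7536 (scaffold00267, 86331 to 87681, minus strand, 2 exons) had a range of 0.15. Its FPKM was 37.8, 48.9 and 49.1 in blue 12 h, 50.7, 46.5 and 49.7 in blue 24 h, 48.2, 45.2 and 51.1 in red 12 h, 39.3, 48.4 and 44.7 in red 24 h, and 40.9, 47.6 and 49.2 in white 0 h. One library was low in each of blue 12 h, red 24 h and white 0 h, and all 5 groups overlapped. The mean was 46.5 FPKM with a coefficient of variation of 8.92%.

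**Figure D2:**
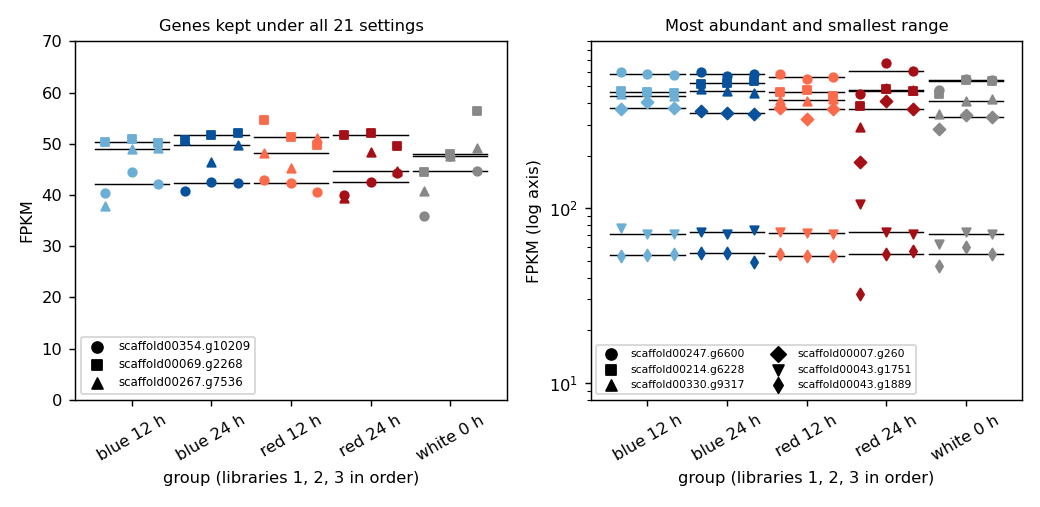
FPKM (vertical axis, linear on the left and logarithmic on the right) in each of the 15 libraries, grouped along the horizontal axis as blue 12 h, blue 24 h, red 12 h, red 24 h and white 0 h. The left panel holds the 3 genes that met the rule under all 21 settings and the right panel the 4 most abundant stable genes and the 2 with the smallest range; each point is a library and each short line a group median, which for scaffold00354.g10209 runs from 42.2 to 44.6 FPKM.

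The most abundant stable genes were also level by their medians and less so by single libraries. The highest mean, 568 FPKM, belonged to scaffold00247.g6600 (scaffold00247, 171841 to 177011, minus strand, 5 exons). It gave 604, 587 and 578 FPKM in blue 12 h, 600, 574 and 585 in blue 24 h, 584, 546 and 566 in red 12 h, 453, 673 and 608 in red 24 h, and 472, 550 and 541 in white 0 h. The lowest 2 values came from red 24 h library 1 and white 0 h library 1, and both blue groups lay above white 0 h without overlap. Next came scaffold00214.g6228 with a mean of 479 FPKM, scaffold00330.g9317 with 426 FPKM and scaffold00007.g260 with 346 FPKM. In the last of these, red 24 h library 1 gave 183 FPKM, against 409 and 370 FPKM in the other 2 libraries of that group.

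The smallest range of medians, 0.04, belonged to scaffold00043.g1751 (scaffold00043, 640713 to 645357, plus strand, 4 exons). Its medians were 71.3 FPKM in blue 12 h, 73.2 in blue 24 h, 72.2 in red 12 h, 73.3 in red 24 h and 71.5 in white 0 h. Single libraries reached further: red 24 h library 1 gave 106 FPKM and white 0 h library 1 gave 62.4 FPKM, and the other 13 lay between 70.8 and 77.4 FPKM. The second smallest, 0.05, was that of scaffold00043.g1889 on the same scaffold (1023262 to 1025506). There red 24 h library 1 was low, at 32.4 FPKM, against 54.8 and 56.6 FPKM in the other 2 libraries of red 24 h. The same library was thus the highest of 15 for one of these genes and the lowest for the other.

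A median of 3 ignores the farthest library, so the single libraries show what the rule did not see. In red 24 h library 1, 101 of the 142 stable genes (71.1%) lay more than 0.25 from their own group median, 21 above it and 80 below it, and 16 lay more than 1 away. The deviations there ran from -1.38 to 1.34, with a median of -0.37. Among the other genes over the floor the same library set 2069 (72.9%) that far off, 853 above and 1216 below. In white 0 h library 1, 70 stable genes (49.3%) lay more than 0.25 below their median and 0 lay that far above, with a median deviation of -0.25, a ratio of 0.842. Among the other genes 1407 (49.5%) were that far off in white 0 h library 1. Stable genes thus deviated by more than 0.25 in these 2 libraries about as often as other genes. Deviations of more than 1 in red 24 h library 1 were less frequent among them, 16 of 142 against 616 of the 2840 other genes. The other genes' deviations in that library ran from -1.80 to 3.58. In each of the remaining 13 libraries 0 to 9 stable genes were that far off, and at most 1 by more than 0.5. The shares were 0% to 6.34% of the stable genes, against 0.528% to 18.5% of the other genes over the floor. They differed most in red 24 h library 3, with 9 stable genes (6.34%) against 525 other genes (18.5%), of which 86 were off by more than 0.5.

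**Figure D3:**
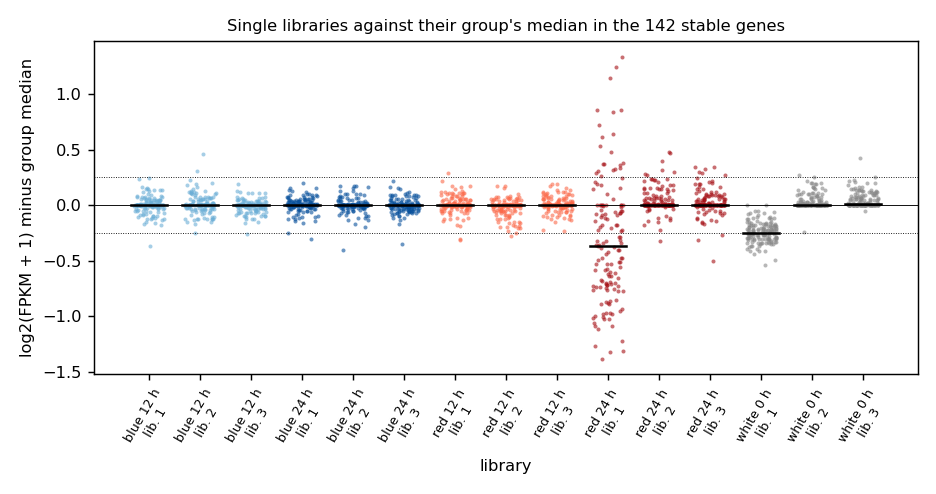
Deviation of each of the 142 stable genes from its group median, in log2(FPKM + 1) (vertical axis), for each of the 15 libraries (horizontal axis, blue, then red, then white). Red 24 h library 1 spreads from -1.38 to 1.34 and white 0 h library 1 lies below 0 with a median of -0.25, and the other 13 libraries lie close to 0.

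The 2 libraries differed in kind under other scalings. With every library scaled to the same median, to an equal sum of all but the 50 most abundant genes, by quantiles, or with its trend over gene length removed, white 0 h library 1 had 0, 1, 1 and 1 stable genes more than 0.25 from their median, in place of 70. For red 24 h library 1 the same scalings left 88, 116, 90 and 93, in place of 101. A single factor per library thus absorbed the deviations in white 0 h library 1 and not those in red 24 h library 1. Over the 2840 other genes, the deviation in red 24 h library 1 went down with exon length (Spearman's rho -0.40), and over the 142 stable genes this was slight (rho -0.10). These are descriptions across genes, which share 1 library. Stable genes shorter than the median of 1684 nt deviated by a median of -0.34 and longer ones by -0.41, whereas the other genes gave 0.06 and -0.43. What sets red 24 h library 1 apart was not tested.

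The extreme cases were both set by that library. The gene scaffold00327.g9113 (scaffold00327, 1444 to 2325, minus strand, 3 exons) had a range of medians of 0.16 and the largest range over 15 libraries, 1.65, a ratio of 3.15. It gave 84.9, 31.7 and 33.0 FPKM in red 24 h and 28.0 to 44.3 FPKM in the blue groups and red 12 h, against 26.3, 33.8 and 38.4 FPKM in white 0 h. In scaffold00267.g7681 (scaffold00267, 491742 to 492718, plus strand, 1 exon) the same library was low. Red 24 h gave 29.5, 87.6 and 78.6 FPKM, and the blue groups and red 12 h gave 69.6 to 91.3 FPKM, against 78.1, 84.1 and 75.4 FPKM in white 0 h. Without that library, red 24 h lay within the values of the other groups in scaffold00327.g9113 and above those of both blue groups in scaffold00267.g7681.

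Over all 15 libraries the highest minus lowest value of a stable gene had a median of 0.74 and ran from 0.33 to 1.65, and 36 of the 142 genes spanned more than 1. Without red 24 h library 1 the median was 0.47, the largest was 0.91 and 0 genes spanned more than 1. Without white 0 h library 1 as well, the median was 0.34 and 130 genes spanned at most 0.5. The other genes over the floor had medians of 1.34, 0.98 and 0.82 over the same 15, 14 and 13 libraries.

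The spread within groups was set beside the SD that counting fragments alone gives. The value of a stable gene rested on 33 to 4816 fragments with a median of 470.5, for which counting alone gives an SD of 0.067 on the log2 scale. The median within-group SD of the stable genes was 0.063 for blue 12 h, where counting alone gave 0.069. It was 0.054 for blue 24 h, where counting gave 0.062, and 0.066 for red 12 h, where counting gave 0.066. In red 24 h it was 0.32 and in white 0 h 0.17, where counting gave 0.084 and 0.062. The other genes over the floor had within-group SDs of 0.061, 0.050, 0.062, 0.37 and 0.17 in blue 12 h, blue 24 h, red 12 h, red 24 h and white 0 h. The stable genes thus had the smaller median SD in red 24 h and a slightly larger one in the other 4 groups. The median of SDs over 3 libraries lies below the true SD, and 2 libraries of blue 12 h, blue 24 h or red 12 h differed over all genes by a chi-square of 1.34 to 1.97 per degree of freedom, where sampling noise alone gives 1. The fragment counts are thinnest in red 24 h library 1, with a median of 218 a stable gene, and 17 stable genes have a value resting on fewer than 100 fragments.

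The 8 differences between groups were tested with limma over the 9601 genes that reached 1 FPKM in 3 or more libraries, with Benjamini-Hochberg adjustment and a threshold of 0.05. The rule used the same group values, so a low count among the stable genes follows from their selection and is read as no result. Against white 0 h, 0 stable genes passed in blue 12 h (58.5% of all tested genes did), 5 in blue 24 h (55.0%), 1 in red 12 h (57.4%) and 12 in red 24 h (58.9%). The stable genes that passed in this fit, which weights all libraries equally, were higher than in white 0 h, as were 31.1% of all tested genes in blue 24 h, 32.8% in red 12 h and 28.8% in red 24 h. The comparisons share the white libraries. Beside the 0 for blue 12 h, 4 stable genes had an unadjusted p under 0.05, and voom, limma's method for counts, passed 9. Voom divides by each library's sum of fragments in genes, so its scale differs from FPKM as well as its method. These counts rested on single libraries: without red 24 h library 1, limma passed 27 stable genes in blue 12 h, 32 in blue 24 h, 19 in red 12 h and 26 in red 24 h against white 0 h. Without white 0 h library 1 it passed 0, 0, 1 and 4. Without library 2 or 3 of red 24 h, 17 and 21 passed in red 24 h, and without library 1, 2 or 3 of blue 24 h, 0, 0 and 1 passed in blue 24 h. With limma's array weights, which give libraries unequal weight by their spread, the counts on the same scale were 27 higher and 30 lower in blue 12 h, 29 and 25 in blue 24 h, 15 and 24 in red 12 h, and 47 and 30 in red 24 h.

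Between colours and times 0 stable genes passed in limma with the 15 libraries weighted equally and on the FPKM as deposited. This held for blue against red at 12 h (2.76% of all tested genes passed) and at 24 h (12.0%), and for 24 h against 12 h in blue (7.24%) and in red (28.7%). At an unadjusted p under 0.05 the stable genes numbered 0 for blue against red at 12 h, 11 at 24 h, 0 for 24 h against 12 h in blue and 10 in red. Voom, on its own scale, passed 0, 2, 0 and 10 in the same order, and limma with array weights passed 13, 83, 23 and 87. Without red 24 h library 3, 20 stable genes passed in blue against red at 24 h and 31 in red 24 h against red 12 h, and without red 24 h library 2 these were 2 and 8. Without red 24 h library 1 they were 1 and 4, and 1 passed in blue 24 h against blue 12 h. Without white 0 h library 1, 3 passed in red 24 h against red 12 h. The main fit takes 1 spread per gene from all 5 groups, red 24 h included. With only the groups compared in the fit, 10 passed in blue against red at 12 h and 21 in blue 24 h against blue 12 h. In blue against red at 24 h and in red 24 h against red 12 h 0 passed. Without library 1 of both white 0 h and red 24 h, 9 passed in blue against red at 12 h and 15 in blue 24 h against blue 12 h. In the main fit, 128 of the 142 stable genes passed in none of the 8 comparisons. That count does not hold with array weights, with only the groups compared in the fit, with voom or under any of the 4 scalings. It also does not hold without library 1, 2 or 3 of red 24 h, or without library 1 of both white 0 h and red 24 h.

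The direction of the differences from white 0 h depended on the scale, as it did on the weights. For red 24 h against white 0 h, 12 stable genes were higher and 0 lower on the FPKM as deposited. With every library at the same median, 30 were higher and 0 lower, and with the length trend removed 44 were higher and 2 lower. With an equal sum of all but the 50 most abundant genes, 0 were higher and 36 lower, and under quantile normalization 3 were higher and 33 lower. For blue 24 h against white 0 h the same 4 scalings gave 17, 48, 0 and 1 higher and 0, 0, 4 and 17 lower, in place of 5 and 0. For blue 12 h they gave 18, 44, 0 and 0 higher and 0, 0, 4 and 19 lower, in place of 0 and 0, and for red 12 h 8, 45, 0 and 3 higher and 0, 0, 2 and 18 lower, in place of 1 and 0. For red 24 h against red 12 h they gave 11, 3, 0 and 1 higher and 0, 2, 9 and 4 lower, and for blue against red at 24 h 0, 4, 0 and 1 higher and 2, 0, 0 and 0 lower. The scale with the same sum moved the median difference of all 9601 genes between red 24 h and white 0 h by -0.30, and those with the same median, without the length trend and by quantiles moved it by 0.13, 0.17 and 0.17. Whether a stable gene lay above or below white light can therefore not be stated without naming the scale and the weights.

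The smallest adjusted p-values among the stable genes belonged to 4 genes. In scaffold00009.g700 (scaffold00009, 990283 to 992117, minus strand, 1 exon) red 24 h gave 268, 207 and 198 FPKM, against 142, 175 and 183 FPKM in white 0 h. The 2 groups did not overlap, and the difference was 0.42 ± 0.13 (log2, SE; limma adjusted p = 0.00988), with an adjusted p between 1.15e-06 and 0.24 over 28 alternatives. In scaffold00354.g10061, red 24 h gave 388, 316 and 318 FPKM, against 235, 281 and 283 FPKM in white 0 h. These also did not overlap, with a difference of 0.35 ± 0.11 (limma adjusted p = 0.0122; 1.00e-05 to 0.705 over the alternatives). Under quantile normalization both differences turned round, to -0.13 (limma adjusted p = 0.0984) and to -0.40, where scaffold00354.g10061 passed as lower in red 24 h (limma adjusted p = 7.64e-05).

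The next 2 were scaffold00127.g4253 and scaffold00082.g2983. For scaffold00127.g4253 red 24 h gave 104, 66.7 and 65.6 FPKM, against 46.5, 57.6 and 60.7 FPKM in white 0 h, a difference of 0.49 ± 0.16 (limma adjusted p = 0.0150; 6.78e-05 to 0.171 over the alternatives). For scaffold00082.g2983 blue 24 h gave 345, 341 and 329 FPKM, against 226, 289 and 288 FPKM in white 0 h, a difference of 0.35 ± 0.11 (limma adjusted p = 0.0182; 2.12e-05 to 0.291 over the alternatives). Neither pair of groups overlapped. The call for scaffold00127.g4253 was lost without white 0 h library 1 (limma adjusted p = 0.0688). That for scaffold00082.g2983 was lost without library 1 of white 0 h (limma adjusted p = 0.0611) and without library 1 or 2 of blue 24 h (0.0577 and 0.0527). Both calls, and those of the 2 genes above, were also lost with the same sum and with voom. With only the groups compared in the fit, scaffold00009.g700, scaffold00354.g10061 and scaffold00127.g4253 did not pass (limma adjusted p = 0.153, 0.206 and 0.142). The difference of scaffold00082.g2983 was -0.15 under quantile normalization. In scaffold00127.g4253, as in the 2 genes above, the most extreme values came from red 24 h library 1 and white 0 h library 1.

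A p above the threshold does not show that a gene was equal in 2 groups, so the intervals of the differences were counted as well. The 95% interval of a stable gene's difference reached 0.32 to either side at the median, and 0.21 to 0.62 over the 142 genes. For 42 stable genes (29.6%) the intervals of all 8 differences lay within 0.5 of 0, a ratio of 1.41, as they did for 23 of the other genes over the floor (0.81%) and for 130 of all tested genes (1.35%). For 137 stable genes (96.5%) they lay within 1 of 0, a ratio of 2, against 976 of the other genes (34.4%). The intervals are centred on the values the rule chose, so these shares are no test. A gene's interval is equally wide for all 8 differences, because the fit assumes that its spread is the same in every group. The groups did not share one spread: the stable genes' median SD was 0.054 for blue 24 h and 0.32 for red 24 h. For blue 12 h, red 12 h and white 0 h it was 0.063, 0.066 and 0.17. The shares thus describe the precision under that assumption and not the precision of each comparison. The count of 42 was 114 without red 24 h library 1, 25 to 53 without any other single library, and 138 with array weights.

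The number of genes that met the rule moved with its own numbers, with the use of means and with the libraries used. A limit of 0.2 left 70 genes and one of 0.5 gave 821. A floor of 15 FPKM gave 255, a floor of 60 FPKM left 56 and no floor gave 323. Group means in place of medians gave 75 genes, 54 of them among the 142. The 4 scalings gave lists that differed in length and content: 120 genes with the same median, 81 of them shared with the 142; 197 with the same sum, 82 shared; 193 under quantile normalization, 87 shared; and 121 with the length trend removed, 58 shared.

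Omitting 1 library of a blue group or of red 12 h gave 139 to 150 genes, of which 127 to 135 were shared. Omitting red 24 h library 1 gave 174 genes with 127 shared, whereas omitting library 2 or 3 of red 24 h left 66 and 65 with 48 and 47 shared. With red 24 h library 2 or 3 gone, the median of that group is the midpoint of library 1 and 1 other. Omitting white 0 h library 1 gave 170 genes with 135 shared, and omitting white 0 h library 2 or 3 gave 114 and 115 with 83 and 81 shared. Without both red 24 h library 1 and white 0 h library 1, 201 genes met the rule, 124 of them among the 142.

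**Figure D4:**
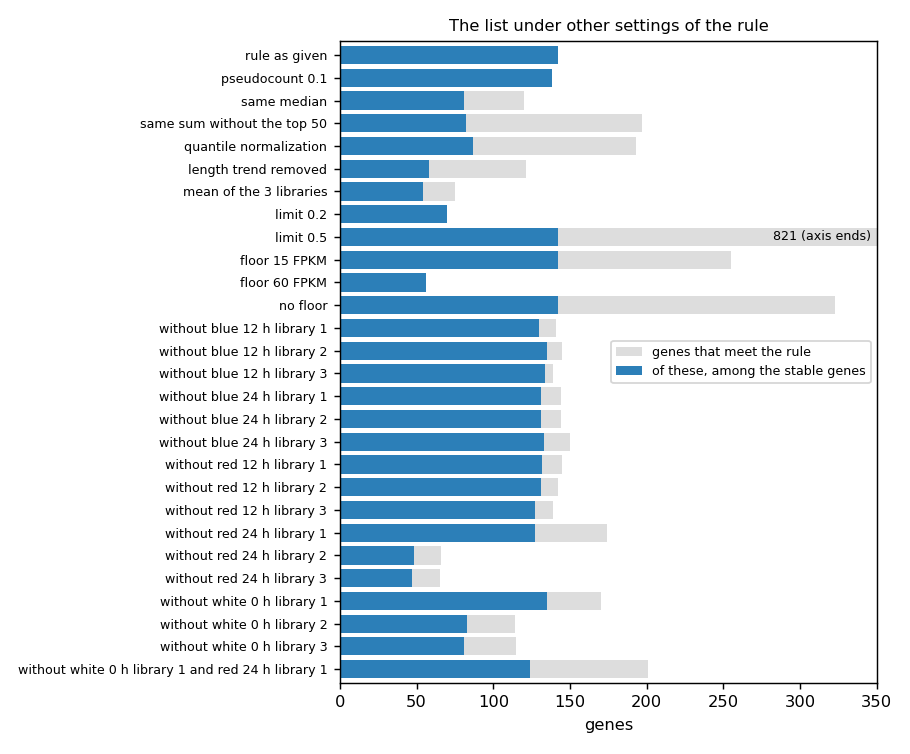
Number of genes that met the rule (horizontal axis) under each setting (vertical axis), with the part shared with the 142 stable genes set apart by colour. Omitting red 24 h library 2 or 3 leaves 66 and 65 genes, and omitting both library 1 of red 24 h and library 1 of white 0 h gives 201; the bar for a limit of 0.5, which stands for 821 genes, runs past the end of the axis.

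Gene structure was not used by the rule. The models of the stable genes had a median of 3 exons, as had the other genes over the floor, against 2 over all 9756 models. Models with 1 exon numbered 30 (21.1%), against 27.1% of the other genes over the floor and 30.8% of all models. Models with 8 or more exons numbered 15 (10.6%), against 6.76% and 7.52%. The most exons among the stable genes were the 22 of scaffold00301.g8730 (scaffold00301, 9814 to 16501, minus strand), at 32.3 FPKM on average, and the 16 of scaffold00009.g922, at 132 FPKM. No test of these shares was made.

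The exon length of the stable genes had a median of 1684 nt and ran from 531 to 6628 nt, against a median of 1498 nt in the other genes over the floor and 1725 nt in all models. The longest was scaffold00182.g5595 (scaffold00182, 650648 to 657275, plus strand), a single exon of 6628 nt with a mean of 38.5 FPKM, followed by scaffold00354.g10182 with 5661 nt in 11 exons and 51.9 FPKM. Introns made up 17.2% of the span of a stable gene at the median, 17.0% in the other genes and 12.0% in all models. The plus strand held 63 stable genes (44.4%), against 50.2% of the other genes over the floor and 49.7% of all models. The 142 genes lay on 40 scaffolds, with 14 on scaffold00009, which carries 568 models, and 8 on scaffold00354, which carries 315. Within 5 models of a scaffold's end lay 13 of them (9.15%), against 7.36% of the other genes over the floor and 10.2% of all models.

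The neighbours of the stable genes were described by their own range of medians, with no test of the shares. Of the 277 neighbours of stable genes, 68 (24.5%) had a range of medians of at least 1, against 33.5% of the 5561 neighbours of other genes over the floor and 34.8% of the neighbours of all models. At least 1 such neighbour was found for 62 of the 141 stable genes that have a neighbour (44.0%). The neighbours of stable genes had a median range of 0.68, against 0.77 for the neighbours of the other genes over the floor. They also had a lower median level, 22.4 FPKM against 29.0 FPKM. By orientation, neighbours with a range of at least 1 made up 18 of 100 divergent neighbours of stable genes (transcribed away from each other), 17 of 75 on the same strand (22.7%) and 33 of 102 convergent ones (32.4%). For the other genes over the floor the shares were 32.9%, 35.7% and 32.1%. Strand-specific counting is not given in the sources used here, so reads of closely spaced convergent genes may not be told apart; no models overlap.

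**Figure D5:**
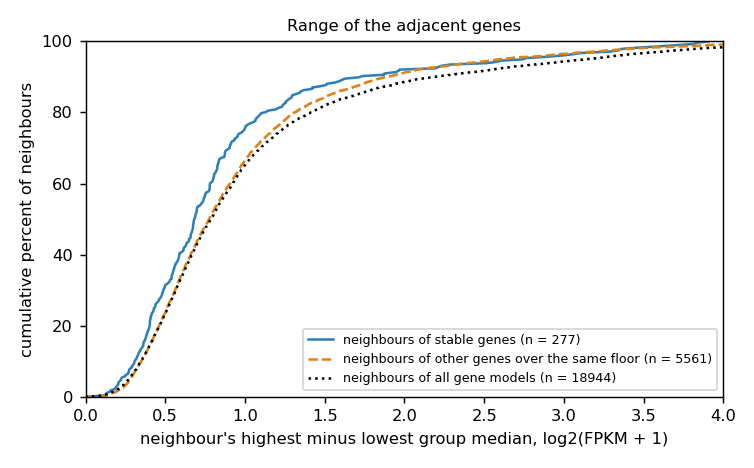
Cumulative percent of neighbouring genes (vertical axis) by the range of their own 5 group medians in log2(FPKM + 1) (horizontal axis), for the 277 neighbours of stable genes, the 5561 neighbours of other genes over the floor and the neighbours of all models. The median range is 0.68 beside stable genes and 0.77 beside the other genes over the floor.

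In 4 cases 2 stable genes were neighbours, so 8 stable genes (5.63%) had a stable neighbour, against 2.75% of the other genes over the floor and 2.83% of all models. Of these pairs 3 were divergent: scaffold00104.g3879 and scaffold00104.g3880, 94 nt apart, scaffold00295.g8626 and scaffold00295.g8627, 314 nt apart, and scaffold00354.g10181 and scaffold00354.g10182, 444 nt apart. The pair scaffold00354.g10189 and scaffold00354.g10190 was convergent, with a gap of 8 nt. The divergent partners were not equal in level: scaffold00104.g3879 had medians of 103.6, 92.3, 104.8, 95.5 and 92.1 FPKM in blue 12 h, blue 24 h, red 12 h, red 24 h and white 0 h, against 32.8, 34.6, 35.2, 32.0 and 34.7 FPKM in its partner. Both stayed level, each at its own height.

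Other divergent pairs joined a stable gene to one that varied widely, and 3 of them, chosen after their values were seen, show the contrast. Among 81 divergent pairs whose gap was at most 1000 nt and whose neighbour averaged at least 10 FPKM, 13 neighbours had a range of at least 1. No share under the same cuts is given here for the other genes over the floor, so this count is not read as few or many. The stable scaffold00009.g840 had medians of 31.6, 36.1, 36.4 and 37.5 FPKM in blue 12 h, blue 24 h, red 12 h and red 24 h, against 36.4 FPKM in white 0 h. Its divergent neighbour scaffold00009.g841 (1408056 to 1412620, plus strand, 16 exons), 724 nt away, had 5.20, 11.4, 6.53 and 11.5 FPKM in the same groups, against 52.5 FPKM in white 0 h. All 12 coloured-light libraries of the neighbour, 3.26 to 15.4 FPKM, lay below the 3 white ones, 43.0 to 57.0 FPKM, and its range was 3.11, a ratio of 8.64.

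The abundant scaffold00214.g6228 had medians of 462, 520, 459 and 471 FPKM in blue 12 h, blue 24 h, red 12 h and red 24 h, against 532 FPKM in white 0 h. Its neighbour scaffold00214.g6227, 264 nt away on the other strand, had 20.9, 17.2, 20.2 and 17.8 FPKM, against 51.0 FPKM in white 0 h, a range of 1.51. The third pair was scaffold00145.g5142, with 38.4, 43.4, 43.5 and 43.2 FPKM against 38.5 FPKM in white 0 h, and scaffold00145.g5143, 274 nt away, with 10.7, 15.6, 11.0 and 13.5 FPKM against 35.1 FPKM. In all 3 pairs the varying partner was higher in white light than in every coloured-light group. The pairs were picked with these values known, so this direction does not describe the other varying neighbours.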

How the data were processed

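Trizol was used for the RNA and a TruSeq kit for the libraries, per the labels' protocols. As deposited by the authors, the data are a table of FPKM for each of the 5 groups, with a column per library, and a file of the gene models (IMET v2), 9755 from AUGUSTUS and 1 marked manual. Tools named in the submitters' processing notes are Cufflinks 2.0.4, TopHat2 2.0.4 and TopHat. Settings, strandedness and the total behind FPKM are not given in the sources used here. In the red 12 h table a repeated column name was resolved through the sample names in its rows. Coordinates are 1-based positions on the scaffolds of the deposited models. None of the 9756 IDs matched the 160 genes of the reference table.

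FPKM is no count. Within a tolerance of 0.1, 100% of the 360 to 1886 low values per library were whole multiples of 1 fragment, which gave the depth and the fragments for voom. By a chi-square over genes no 2 libraries of a group differed by as little as sampling noise. Tests used limma 3.58.1 in R 4.3.3 (lmFit, contrasts, eBayes with a trend) on log2(FPKM + 1), so folds of low genes are understated. One mean per group was fitted to the 15 libraries together, with two-sided tests and Benjamini-Hochberg adjustment over the 9601 genes at 1 FPKM or more in at least 3 libraries. The rule was tried on planted medians, and limma on simulated normal values with 1 common SD per gene over the 15 libraries. The limma trial held no deviating library and no groups of unequal spread, so it does not cover a library such as red 24 h library 1. Summaries and plots were made in Python 3.11.15 with matplotlib 3.10.9, pandas 2.3.3 and numpy 2.4.6. Replicate numbers were not used as pairs in the main fit. Deviations from the group means correlated by -0.06 to 0.15 over 30 same-number pairs, above 0.1 in 2, against 0 of 60 different-number pairs. Both were red 12 h with red 24 h, for library 1 (0.15) and library 3 (0.13). Crossing these gave -0.19 (red 12 h library 1 with red 24 h library 3) and -0.11. Whether the red libraries were paired is not known here.

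The stable genes, the lists and the tests were chosen with earlier results of these data known. Genes were named by a rule: those kept under all 21 settings, the 4 most abundant, the 2 with the smallest range, those at the limit and the floor, the 2 with the largest range over libraries, the 2 with most exons, the 2 longest and the 4 with the smallest adjusted p. Stable genes with a name were also to be given, and there were none. Neighbouring and paired genes outside this rule were chosen after their values were seen. Alternatives were 4 scalings (same median, same sum without the 50 most abundant genes, quantiles, length trend removed by loess with span 0.5), only the groups compared, a replicate block, no trend, array weights, voom, a filter at 5 FPKM or none, a pseudocount of 0.1, other limits and floors, means, and leaving out libraries. Deviations of single libraries under the scalings were added after seeing the data.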

Additional observations from a re-analysis of the deposited data

How the results depend on the processing

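The number of stable genes, 142, was within 1.5 times under a pseudocount of 0.1 and the 4 scalings. It was 75 with means, 70 and 821 at limits of 0.2 and 0.5, 255, 56 and 323 at floors of 15 FPKM, 60 FPKM and none, 65 to 174 when 1 library was left out and 201 without library 1 of white 0 h and of red 24 h. Stable genes that passed numbered 1, 12, 0, 5, 0, 0, 0 and 0 in the order red at 12 h and at 24 h and blue at 12 h and at 24 h, each against white 0 h, blue against red at 12 h and at 24 h, and 24 h against 12 h in red and in blue. In that order, leaving out 1 library gave 0 to 19, 4 to 26, 0 to 27, 0 to 32, 0 to 0, 0 to 20, 0 to 31 and 0 to 1, and omitting library 1 of white 0 h and of red 24 h together gave 28, 21, 36, 30, 9, 10, 21 and 15. Array weights gave 39, 77, 57, 54, 13, 83, 87 and 23, and the length trend removed 45, 46, 44, 48, 0, 4, 5 and 1. The same median gave 8, 30, 18, 17, 0, 2, 11 and 0, the same sum 2, 36, 4, 4, 0, 0, 9 and 0, and quantiles 21, 36, 19, 18, 0, 1, 5 and 0. Only the groups compared gave 10, 0, 10, 17, 10, 0, 0 and 21, and voom 4, 36, 9, 4, 0, 2, 10 and 0. No filter passed 1 in blue 12 h against white 0 h and 1 in red 24 h against red 12 h, where a filter at 5 FPKM also passed 1. With a replicate block 0 passed in red 12 h against white 0 h, as without the trend, and 10 in red 24 h against white 0 h; the block moved no other count of calls by over 1.5 times (5563 genes passed in red 12 h against white 0 h, in place of 5512).

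Over all tested genes, leaving out 1 library gave 4854 to 7030, 5096 to 6449, 4954 to 7014, 4605 to 6837, 75 to 1540, 457 to 3393, 1293 to 4470 and 354 to 2450 in the same order. With only the groups compared, 3660 passed in red 24 h against white 0 h, 2444 in blue against red at 12 h and 44 at 24 h, and 207 and 3591 in 24 h against 12 h in red and in blue. Blue against red at 12 h (265) became 616, 605 and 729 under the same median, quantiles and length, 2946 with array weights, 422 with voom and 2344 without both libraries. At 24 h (1153) the same settings gave 1820, 1744, 2156, 6378, 1758 and 2519. Blue 24 h against blue 12 h (695) became 1175, 1254, 1293 and 4018 under the first 4 of these and 3285 without both libraries, and red 24 h against red 12 h (2751) became 6952 with array weights. The count of 42 genes with all intervals within 0.5 of 0 was 72 with the same median, 138 with array weights and 25 to 114 when 1 library was left out. In white 0 h library 1 the 70 deviating genes became 0 with the same median and 1 under each other scaling. Under quantiles the differences from white 0 h of scaffold00009.g700 (-0.13), scaffold00354.g10061 (-0.40) and scaffold00082.g2983 (-0.15) reversed. The causes were not tested. Depth limits the thinnest values, which rest on 33 fragments (SD 0.25 on the log2 scale from counting alone).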

Other observations

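DGAT1A, the single model with a name in the files, encodes a diacylglycerol acyltransferase, an enzyme of the last step of oil synthesis. It gave 35.6, 33.8 and 36.8 FPKM in blue 12 h, 33.4, 35.2 and 37.1 in blue 24 h, 34.8, 32.5 and 34.3 in red 12 h, 20.4, 33.6 and 30.4 in red 24 h, and 20.9, 28.3 and 31.1 in white 0 h. Its lowest values came from library 1 of red 24 h and of white 0 h. All values in blue 12 h, blue 24 h and red 12 h, 32.5 to 37.1 FPKM, lay above those of white 0 h, 20.9 to 31.1 FPKM, whereas red 24 h overlapped with white 0 h. With a range of medians of 0.32 and a median of 28.3 FPKM in white 0 h, DGAT1A was outside both parts of the rule. It met the rule under 0 of the 21 settings.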
